A study of Mus musculus with 9 samples.

Results

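Cartilage genes were followed in the dissected hindgut of mouse embryos that lack endothelin receptor B, encoded by Ednrb, in all cells or in the neural crest. The members were chosen by name: every probe set that the platform's gene table assigns to only 1 of Col2a1, Col9a1, Col9a2, Col11a1, Acan, Matn1, Matn3, Sox5, Sox9 and Otor. All 10 genes were measured, by 21 probe sets, out of 18193 genes measured in all. The names were put together when the intensities of the same 9 arrays were already known, so the members' levels and differences between genotypes are given as a description, with no p-value.

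The study measured RNA of the terminal colon on Affymetrix MOE430 version 2 arrays, 3 per genotype. Ednrb null embryos were homozygous for the lacZ allele, written EdnrB(lacZ/lacZ) in the labels. Ednrb NCC null embryos, called NCC null here, were labelled Ednrb-FLEX(NCC-/-) and described as mutant for Ednrb in NCC cells, and the labels name no driver for this deletion. Wild type embryos were the controls. All embryos were labelled embryonic day 14, while the series text gives 14.5, and no treatment or strain is named for any group. The labels do not say whether an array held 1 embryo or a pool, so the spread between arrays may be partly technical.

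Cartilage matrix is built on a thin fibril of type II collagen, made from Col2a1, to which type IX and type XI collagens are bound. The proteoglycan aggrecan (Acan) fills the space between the fibrils, and matrilins link the 2 systems. Chondrocytes switch these genes on through Sox9, which acts together with Sox5 and Sox6. Several of the genes are also active outside cartilage: Sox9 in gut epithelial progenitors and neural crest, and Col2a1, Col9a1 and Col11a1 in various embryonic epithelia and mesenchymes. The vertebrae and pelvis, which form from cartilage at this stage, lie next to the terminal colon.

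Median intensity per array lay between 112 and 116. Ednrb itself had a log2 intensity of 9.23, 9.40 and 8.77 in the 3 Ednrb null arrays, 11.15, 11.32 and 11.04 in NCC null and 11.08, 10.95 and 11.05 in wild type. Whether its probes lie in the deleted part is not known. Some arrays stood apart in the genes that differ between the sexes: Xist read 6.70 in wild type 1C against 11.60 to 14.07 in the other 8 arrays, and Y-linked genes averaged 3.74 in NCC null 2 and 5.76 in NCC null 6 against 7.65 to 9.38 in the other 7 (log2 intensity). With any 1 array left out, wild type 1C included, the difference between Ednrb null and wild type lay between 1.31 and 1.52 for Otor. It lay between 0.38 and 0.67 for Col2a1, 0.61 and 0.90 for Col9a1 and 0.36 and 0.53 for Col11a1. The NCC null arrays do not enter this difference. Between the mutants, with any 1 array left out, it lay between 1.36 and 1.54 for Otor and 0.96 and 1.25 for Col2a1. For Col9a1 it lay there between 0.63 and 0.86, and for Col11a1 between 0.68 and 0.85. Xist and the Y-linked genes were both high in Ednrb null 29, 37 and 41, NCC null 5 and wild type 1B and 1D. They read 11.60 to 14.07 and 7.65 to 9.38 there, as RNA of both sexes in 1 array would give. Whether these arrays held pools was not tested. Of the gut mesenchyme and smooth muscle markers, all 8 were measured. Among them, the log2 intensity of Acta2 averaged 14.25 ± 0.11 in Ednrb null, 14.45 ± 0.10 in NCC null and 14.35 ± 0.01 in wild type (SD over 3 arrays each). Smooth muscle signal does not by itself tell gut from other tissue. In whole tissue, fewer cells of a type and less RNA per cell cannot be told apart.

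The cartilage genes did not move as one set. On their brightest probe sets, Col2a1, Col9a1, Col11a1 and Otor were higher in every Ednrb null array than in every NCC null array and every wild type array, by 1.36- to 2.72-fold over wild type. Col9a2, Acan, Matn1 and Sox9 lay within 0.23 log2 units between the means of any pair of groups. The 2 remaining genes, Matn3 and Sox5, showed small separations in 1 comparison each.

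**Figure D1:**
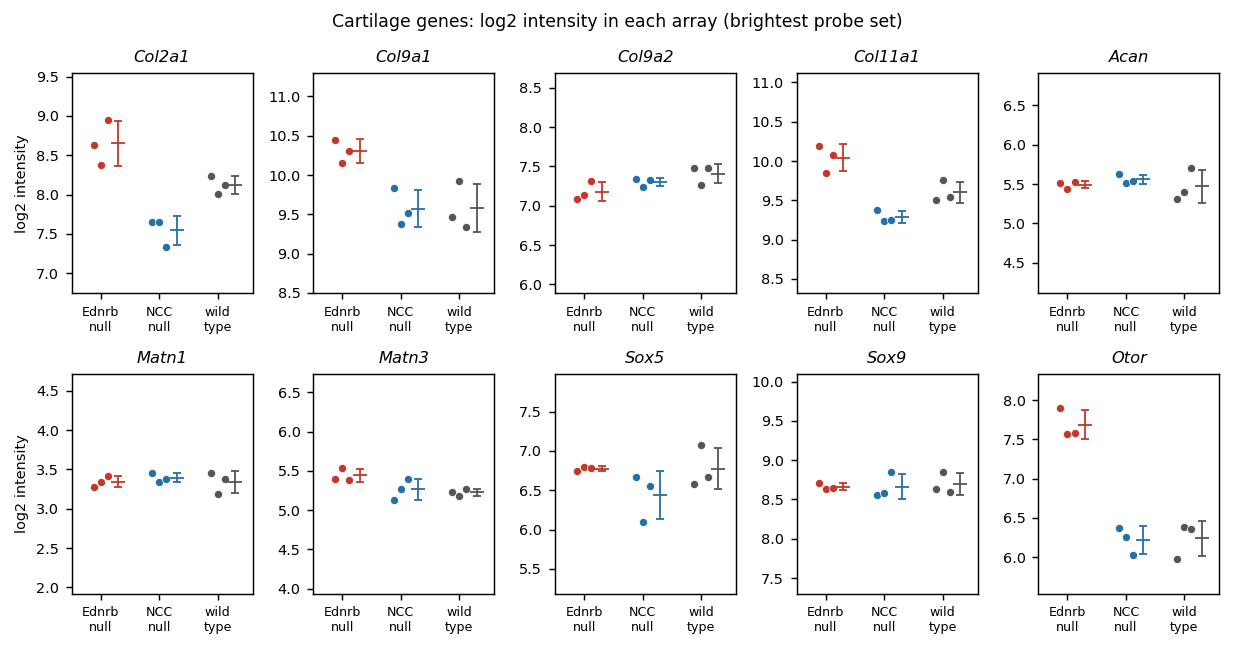
Log2 intensity (vertical axes, each spanning 2.8 log2 units) of the brightest probe set of each member in the 3 arrays of Ednrb null, NCC null and wild type; points are arrays, bars the mean ± SD (n = 3). Col2a1, Col9a1, Col11a1 and Otor stand higher in Ednrb null than in the other groups, while Acan, Matn1 and Sox9 stay level.

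Col2a1, the chain of the type II collagen fibril, had a log2 intensity of 8.63, 8.37 and 8.95 in Ednrb null, of 7.65, 7.65 and 7.33 in NCC null and of 8.24, 8.003 and 8.12 in wild type. The 3 groups did not overlap, with Ednrb null highest and NCC null lowest. The difference from wild type was 0.53 in Ednrb null (SE 0.14, 1.44-fold higher) and -0.58 in NCC null (SE 0.14, 0.67 of the wild type intensity). Between the mutants it was 1.11 (SE 0.14, 2.15-fold higher in Ednrb null). SEs are those of limma, from the spread shared by the 3 groups.

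Col9a1 encodes a chain of type IX collagen, which sits on the surface of the type II fibril. Its brightest probe set read 10.45, 10.15 and 10.31 in Ednrb null, 9.83, 9.37 and 9.52 in NCC null and 9.47, 9.92 and 9.34 in wild type (log2 intensity). Ednrb null lay above all 6 other arrays, and NCC null and wild type overlapped. The difference from wild type was 0.73 in Ednrb null (SE 0.16) and -0.0037 in NCC null (SE 0.16). On the dimmer probe set Ednrb null again lay above all 6 other arrays, at 8.12, 7.79 and 7.97 in Ednrb null, 7.47, 7.42 and 7.51 in NCC null and 7.26, 7.61 and 7.49 in wild type.

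Col9a2, the partner of Col9a1 in the same collagen trimer, did not share this pattern. It read 7.09, 7.14 and 7.32 in Ednrb null, 7.33, 7.24 and 7.33 in NCC null and 7.47, 7.27 and 7.49 in wild type. The groups overlapped, and the mean of Ednrb null was 0.23 log2 units below wild type (SE 0.09), opposite in sign to Col9a1.

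Col11a1, a chain of type XI collagen in the core of the fibril, had 2 probe sets. The brighter read 10.19, 9.85 and 10.08 in Ednrb null, 9.38, 9.24 and 9.25 in NCC null and 9.51, 9.75 and 9.55 in wild type. As with Col2a1, the groups did not overlap, with Ednrb null highest and NCC null lowest. The differences from wild type were 0.44 in Ednrb null and -0.31 in NCC null (SE 0.11 each), and 0.75 between the mutants. On the dimmer probe set, at 9.92, 9.18 and 9.46 in Ednrb null, 8.95, 8.72 and 8.53 in NCC null and 8.80, 9.22 and 8.56 in wild type, Ednrb null 37 fell just below wild type 1C.

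Otor encodes otoraplin, a small secreted protein best known from the inner ear and related to Mia, a protein secreted by chondrocytes. It showed the largest difference of the 10 genes. Its only probe set read 7.90, 7.57 and 7.58 in Ednrb null, 6.38, 6.26 and 6.03 in NCC null and 5.98, 6.38 and 6.36 in wild type. The lowest Ednrb null array lay more than 1 log2 unit above the highest of the other 6 arrays. Ednrb null was 2.72-fold above wild type (log2 difference 1.45, SE 0.14) and 2.76-fold above NCC null (1.46, SE 0.14), while NCC null and wild type differed by -0.02 (SE 0.14). This is a dim probe set, brighter than 48.5% of all probe sets. RMA pulls dim values together, so folds at such levels understate a difference.

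The RefSeq promoter windows of the 3 of these 4 genes that have one in the table used are shown because these genes shared the higher level in Ednrb null. Matn1, which did not differ, is set beside them. Each sequence runs 5′ to 3′ on the + strand of GRCm38.p6 and stops before the annotated start of the gene, except the second window of Col9a1, which lies inside the gene before an internal start. Capitals mark matches to ACAANG, the core letters bound by Sox proteins, or to TATAAA, the TATA box, sought on both strands.
Otor, chr2:143078143-143078392: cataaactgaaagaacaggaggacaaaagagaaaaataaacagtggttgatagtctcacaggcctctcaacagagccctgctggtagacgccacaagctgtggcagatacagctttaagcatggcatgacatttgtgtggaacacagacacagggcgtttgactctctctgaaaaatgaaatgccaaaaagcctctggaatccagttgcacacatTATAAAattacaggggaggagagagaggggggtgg
Col9a1, first start, chr1:24177360-24177588: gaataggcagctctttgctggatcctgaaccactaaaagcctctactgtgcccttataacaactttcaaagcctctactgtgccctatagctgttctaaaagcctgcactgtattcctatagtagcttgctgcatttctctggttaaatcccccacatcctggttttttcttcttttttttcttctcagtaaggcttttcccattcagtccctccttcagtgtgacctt
Col9a1, internal start, chr1:24194953-24195202: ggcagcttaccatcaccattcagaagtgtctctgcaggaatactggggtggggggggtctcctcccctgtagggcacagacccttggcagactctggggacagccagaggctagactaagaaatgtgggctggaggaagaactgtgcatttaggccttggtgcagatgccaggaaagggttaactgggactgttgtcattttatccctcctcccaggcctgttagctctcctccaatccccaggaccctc
Col11a1, chr3:114030290-114030478: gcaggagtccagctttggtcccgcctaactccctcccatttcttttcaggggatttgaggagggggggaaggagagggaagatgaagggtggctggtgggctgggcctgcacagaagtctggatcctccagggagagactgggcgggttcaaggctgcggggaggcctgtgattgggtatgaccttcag
Matn1, chr4:130944135-130944384: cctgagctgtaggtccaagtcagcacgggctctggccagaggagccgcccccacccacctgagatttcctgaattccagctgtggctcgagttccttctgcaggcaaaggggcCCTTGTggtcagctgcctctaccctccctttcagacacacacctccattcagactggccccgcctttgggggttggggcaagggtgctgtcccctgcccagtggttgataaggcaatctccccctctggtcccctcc

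Otor carried a TATAAA close to its start, a motif found in 12.4% of the 32851 mouse promoter windows of 250 bases and in 1 of the 9 windows of members. ACAANG occurred in 36.3% of all windows and in 4 of the 9. The 4 were those of Matn1, Matn3, Sox5 and the first Col9a1 start, where the match lies beyond the stretch printed. The probe sets are not placed on the genome in the files used, so which Col9a1 start they read is not known.

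Aggrecan and the matrilins were dim. Acan read 5.52, 5.44 and 5.52 in Ednrb null, 5.63, 5.52 and 5.54 in NCC null and 5.31, 5.40 and 5.71 in wild type. Its groups overlapped in every comparison, and its differences from wild type were 0.02 in Ednrb null and 0.09 in NCC null (SE 0.10 each). Matn1 lay at 3.28, 3.34 and 3.42 in Ednrb null, 3.46, 3.35 and 3.37 in NCC null and 3.45, 3.18 and 3.37 in wild type. Only 3.10% of all probe sets were dimmer, so Matn1 is at the floor of these arrays and its differences carry little signal.

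Matn3, another matrilin, was also dim. Its brighter probe set read 5.40, 5.54 and 5.38 in Ednrb null, 5.13, 5.26 and 5.40 in NCC null and 5.23, 5.18 and 5.27 in wild type, so Ednrb null lay above wild type by 0.22 (SE 0.09) and overlapped NCC null. On the dimmer probe set both mutants lay below wild type without overlap, by -0.18 in Ednrb null and -0.29 in NCC null, at levels that only 1.25% of probe sets fell below. Its name ends in x_at, the mark of probes that may also bind other transcripts.

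Of the transcription factors that drive the cartilage programme, neither Sox9 nor Sox5 had Ednrb null above wild type without overlap on any probe set. Some Sox5 probe sets shared only the lower NCC null level of Col2a1 and Col11a1. Sox9, needed for every step of chondrocyte formation, read 8.71, 8.64 and 8.65 in Ednrb null, 8.55, 8.59 and 8.85 in NCC null and 8.64, 8.85 and 8.60 in wild type. All pairs of groups overlapped, and the differences were -0.03 in Ednrb null and -0.03 in NCC null against wild type (SE 0.10 each). Its other probe sets gave 0.12 and -0.04 in Ednrb null and 0.06 and 0.04 in NCC null.

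Sox5, a partner of Sox9, had 7 probe sets, most of them dim. The brightest read 6.75, 6.80 and 6.78 in Ednrb null, 6.67, 6.10 and 6.55 in NCC null and 6.58, 7.07 and 6.67 in wild type. Ednrb null lay just above NCC null and overlapped wild type. The 3 brightest probe sets of Sox5 each had Ednrb null above NCC null without overlap, by 0.34, 0.38 and 0.34. On 2 of these 3, NCC null also lay below wild type without overlap, by -0.33 and -0.22, as for Col2a1 and Col11a1. The 4 dimmer ones overlapped there, with differences of -0.17 to 0.15. Against wild type the 7 probe sets spanned -0.22 to 0.12 in Ednrb null and -0.34 to 0.09 in NCC null.

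**Figure D2:**
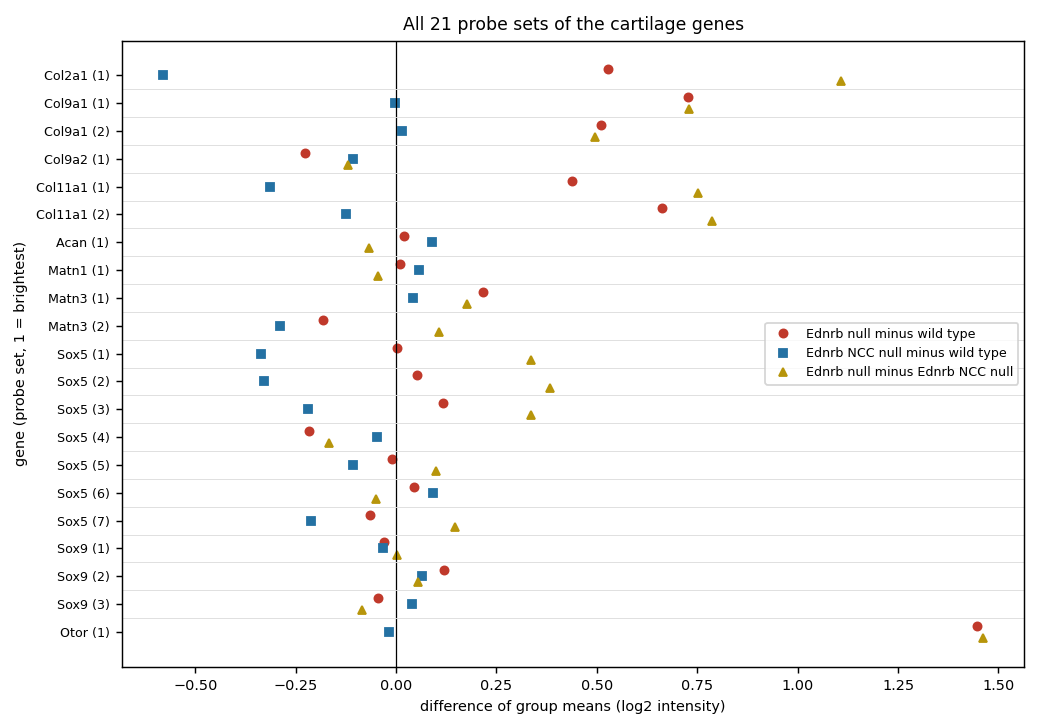
Difference of group means (log2 intensity, horizontal axis) for each of the 21 probe sets of the 10 members, numbered from the brightest within a gene; circles show Ednrb null minus wild type, squares NCC null minus wild type and triangles Ednrb null minus NCC null. The circles and triangles of Col2a1, Col9a1, Col11a1 and Otor lie right of 0, while those of Acan, Matn1 and Sox9 stay near it.

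Counted over the members' brightest probe sets, 5 of 10 genes had all Ednrb null arrays above all wild type arrays and 0 had them below. Among all genes the groups did not overlap for 22.6%, with 14.4% above and 8.19% below. Those 5 were Col2a1, Col9a1, Col11a1, Otor and Matn3. NCC null lay above wild type for 0 members and below it for 2, Col2a1 and Col11a1, against 15.6% and 6.30% of all genes (21.9% without overlap). Ednrb null lay above NCC null for 5, Col2a1, Col9a1, Col11a1, Otor and Sox5, and below it for 0, against 11.8% and 12.4% of all genes (24.2% without overlap). As the members were listed with these values known, nothing is read from these counts.

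The limma calls of the members rest on the values that led to their choice, so they are counted here as a description and are no test. Members with an adjusted p under 0.05 for Ednrb null against wild type were Col9a1, Col11a1 and Otor, 3 of 10, all higher, where 5.04% of all genes were called, 2.65% higher and 2.39% lower. For NCC null against wild type Col2a1 alone was called, lower, beside 4.96% of all genes called, 1.25% lower and 3.70% higher. Between the mutants Col2a1, Col9a1, Col11a1 and Otor were called, 4 of 10, all higher in Ednrb null, beside 6.52% of all genes called, 2.07% higher and 4.46% lower. The median difference of the members was 0.12 in Ednrb null and -0.02 in NCC null against wild type, and 0.26 for Ednrb null over NCC null, and that of all genes 0.04, 0.02 and 0.0092. The first of these medians depended on the probe sets and filter used: it was 0.019 with the mean of each gene's probe sets and 0.44 over the 5 members left without the dimmest genes. The others were -0.11 and 0.73 over those 5, and the last was 0.15 with the mean of probe sets. Both mutants were set against the same 3 wild type arrays. For Ednrb null against wild type the count was 1 without any 1 of Ednrb null 29, Ednrb null 41, wild type 1B and wild type 1D, since Otor alone was then past the threshold. For NCC null against wild type the count was 0 without any 1 of Ednrb null 29, NCC null 2, 5 and 6 and the 3 wild type arrays.

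Over the 9 arrays, the members nearest to Col2a1 were Col11a1 (Pearson r 0.91, Spearman rho 0.87), Otor (0.78 and 0.65) and Col9a1 (0.70 and 0.58). Sox5 and Matn3 had r of 0.44 and 0.38, Matn1 -0.05, Sox9 -0.18, Acan -0.21 and Col9a2 -0.22. These values describe 9 arrays that fall into 3 genotypes, and much of the likeness lay between genotypes. When each array was taken as its deviation from its genotype's mean, r with Col2a1 was 0.26 for Col11a1, 0.03 for Otor and 0.01 for Col9a1. Among the Ednrb null arrays, 41 was highest for Col2a1 and 29 for Col11a1, Otor and Col9a1.

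Besides the members, 53 genes of cartilage biology were listed, of which 47 were measured. This list was also written with earlier results of these data known. Its counts and p-values are therefore a description and no independent check of the members. The 47 genes too went different ways. In Ednrb null against wild type 3 rose and 2 fell, in NCC null 2 rose and 3 fell, and between the mutants 4 were higher and 4 lower in Ednrb null (limma, adjusted p under 0.05). The percentages called among all genes are those given above. The list medians were -0.03, -0.0063 and -0.03, beside 0.04, 0.02 and 0.0092 for all genes.

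Of the 20 measured matrix genes 2 rose and 1 fell in Ednrb null against wild type. Hapln1, the link protein that ties aggrecan to hyaluronan, had a log2 intensity of 8.53, 8.16 and 8.33 in Ednrb null, 7.69, 7.59 and 7.69 in NCC null and 7.19, 7.71 and 7.03 in wild type. It rose 2.04-fold in Ednrb null against wild type (log2 difference 1.03, SE 0.16, limma adjusted p = 0.00353), with 3 further probe sets at 0.96 to 1.08. This call held with any 1 array left out (adjusted p from 0.000233 to 0.0198). In NCC null Hapln1 stood 0.35 above wild type (limma adjusted p = 0.252), and the 3 further probe sets stood at 0.58, 0.40 and 0.55. Their limma adjusted p over all probe sets was 0.0217, 0.215 and 0.117. Cytl1, a small protein secreted by chondrocytes, read 6.78, 6.52 and 7.02 in Ednrb null, 6.18, 6.15 and 6.21 in NCC null and 6.05, 6.26 and 6.24 in wild type. It rose by 0.59 against wild type (SE 0.12, adjusted p = 0.0169), a call lost without Ednrb null 29 (adjusted p = 0.0598) or wild type 1B (0.0748).

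Col9a3, the third chain of type IX collagen, read 7.75, 7.49 and 7.94 in Ednrb null, 7.03, 6.96 and 7.09 in NCC null and 7.52, 7.59 and 7.56 in wild type. It fell in NCC null against wild type by 0.53 on the log2 scale (SE 0.11, limma adjusted p = 0.0191) and was 0.70 higher in Ednrb null than in NCC null (adjusted p = 0.00405), while Ednrb null and wild type overlapped (0.17, adjusted p = 0.426). The fall was lost without NCC null 5 or 6, wild type 1B or wild type 1C (adjusted p = 0.0803, 0.0602, 0.0601 and 0.0501). Its order of groups was that of Col2a1, and its r with Col2a1 was 0.92 over the 9 arrays. The dimmer probe sets gave -0.32 and -0.18 for the fall. Of the 3 chains of type IX collagen, Col9a1 was thus higher in Ednrb null, Col9a3 lower in NCC null, and Col9a2 neither.

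Hapln1 and Cytl1 were also higher in Ednrb null than in NCC null, by 0.68 and 0.59 (limma adjusted p = 0.0266 and 0.0142). The call of Hapln1 was lost without Ednrb null 29 or 41 or any of the 3 NCC null arrays (adjusted p up to 0.111), and that of Cytl1 without Ednrb null 29 or NCC null 5 or 6 (up to 0.0595). Prelp, a leucine-rich proteoglycan of connective tissue, went the other way. It read 5.72, 6.16 and 5.79 in Ednrb null and 6.85, 6.75 and 6.97 in NCC null, with wild type at 6.42, 6.13 and 6.69, overlapping Ednrb null. It was lower in Ednrb null by 0.97 on the log2 scale (adjusted p = 0.0044), and its dimmer probe set gave -0.20. Cilp, a matrix protein of the middle layer of articular cartilage, fell in both mutants against wild type, by 0.54 in Ednrb null (adjusted p = 0.0299) and 0.48 in NCC null (adjusted p = 0.0487). The first of these calls was lost without Ednrb null 29 or 41 or wild type 1B or 1D (adjusted p up to 0.114), and the second was kept only without wild type 1C (up to 0.172).

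Among 9 measured transcription regulators, Sox8 fell in both mutants. Sox8, a relative of Sox9 and Sox10 that neural crest cells also express, read 4.69, 4.74 and 5.17 in Ednrb null, 5.13, 5.06 and 5.04 in NCC null and 5.40, 6.36 and 6.71 in wild type. It fell by 1.29 in Ednrb null (SE 0.26, limma adjusted p = 0.0177) and by 1.08 in NCC null (adjusted p = 0.041). The first call was lost without Ednrb null 29 or 37 (adjusted p = 0.0681 and 0.0697), and the second was kept only without Ednrb null 41 or wild type 1B (up to 0.135). The crest markers Ret, Sox10, Cdh19 and Elavl4 fell in both mutants as well, and the summed intensity of the 5 crest markers measured was 1068 to 1305 in Ednrb null, 1539 to 1714 in NCC null and 2334 to 3793 in wild type; the part of the crest in the Sox8 result was not tested.

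Sox6, which works with Sox5 and Sox9, did not pass in any comparison. Nkx3-2, a transcriptional repressor expressed in the sclerotome and also active in gut mesenchyme, rose by 0.53 in NCC null (limma adjusted p = 0.0445). It stood at 0.42 in Ednrb null (adjusted p = 0.108). The rise in NCC null was kept only without Ednrb null 29 or 41 or wild type 1D (adjusted p up to 0.156 otherwise). Wwp2, a ubiquitin ligase that Sox9 activates in cartilage, rose by 0.41 in Ednrb null (adjusted p = 0.0447), a call kept only without wild type 1D (up to 0.168), with 5 further probe sets at 0.0040 to 0.28.

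Of 4 measured genes of sulfate supply and chondroitin synthesis, Papss2, which makes the sulfate donor, rose in NCC null. It read 8.94, 9.27 and 9.11 there and 8.21, 8.02 and 8.53 in wild type (0.85, SE 0.14, limma adjusted p = 0.0074, kept with any 1 array left out). The dimmer probe sets gave -0.47, 0.03 and 0.37, so they disagreed on the direction. Papss2 and the sulfate transporter gene Slc26a2 were lower in Ednrb null than in NCC null, by 0.79 and 0.44 on the log2 scale (adjusted p = 0.00761 and 0.0285). The dimmer probe sets of Papss2 gave -0.15, 0.20 and -0.08 between the mutants, and its call was lost with the mean of all probe sets. The call of Slc26a2 was kept only without NCC null 5 or 1 of the wild type arrays (up to 0.121).

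Of 10 signalling genes none passed against wild type in either mutant with limma (adjusted p of 0.05), and Ihh and Pth1r passed between the mutants. Ihh, the hedgehog ligand of growth plates and of gut epithelium, read 8.73, 8.73 and 8.33 in Ednrb null and 9.35, 9.37 and 9.84 in NCC null, with wild type at 8.67, 9.19 and 9.11. It was lower in Ednrb null by 0.92 on the log2 scale (adjusted p = 0.0103, kept with any 1 array left out, but 0.065 with the Actb 3' to 5' ratio as covariate). Pth1r, the receptor of parathyroid hormone related protein, was higher in Ednrb null by 0.29 (adjusted p = 0.0411), a call kept only without wild type 1D (up to 0.125). The 4 genes of hypertrophic cartilage, Col10a1, Mmp13, Ibsp and Alpl, did not pass in any comparison. On their brightest probe sets their differences lay between -0.23 and 0.15. Mmp13 and Ibsp were dim there, with group means of 3.54 to 3.58 and 4.07 to 4.25, so their differences carry little signal. A still dimmer probe set of Ibsp, at a mean log2 intensity of 3.57, stood at -1.04 in Ednrb null and -1.18 in NCC null against wild type (limma adjusted p = 0.0489 and 0.0343 over all probe sets). Across the 47 genes, 13, 16 and 14 had an unadjusted limma p under 0.05 in the comparisons of Ednrb null with wild type, of NCC null with wild type and of the 2 mutants. These were 27.7%, 34% and 29.8%, where 19.2%, 19.6% and 19.7% of all genes did. As the list was written with earlier results known, nothing is read from these shares.

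**Figure D3:**
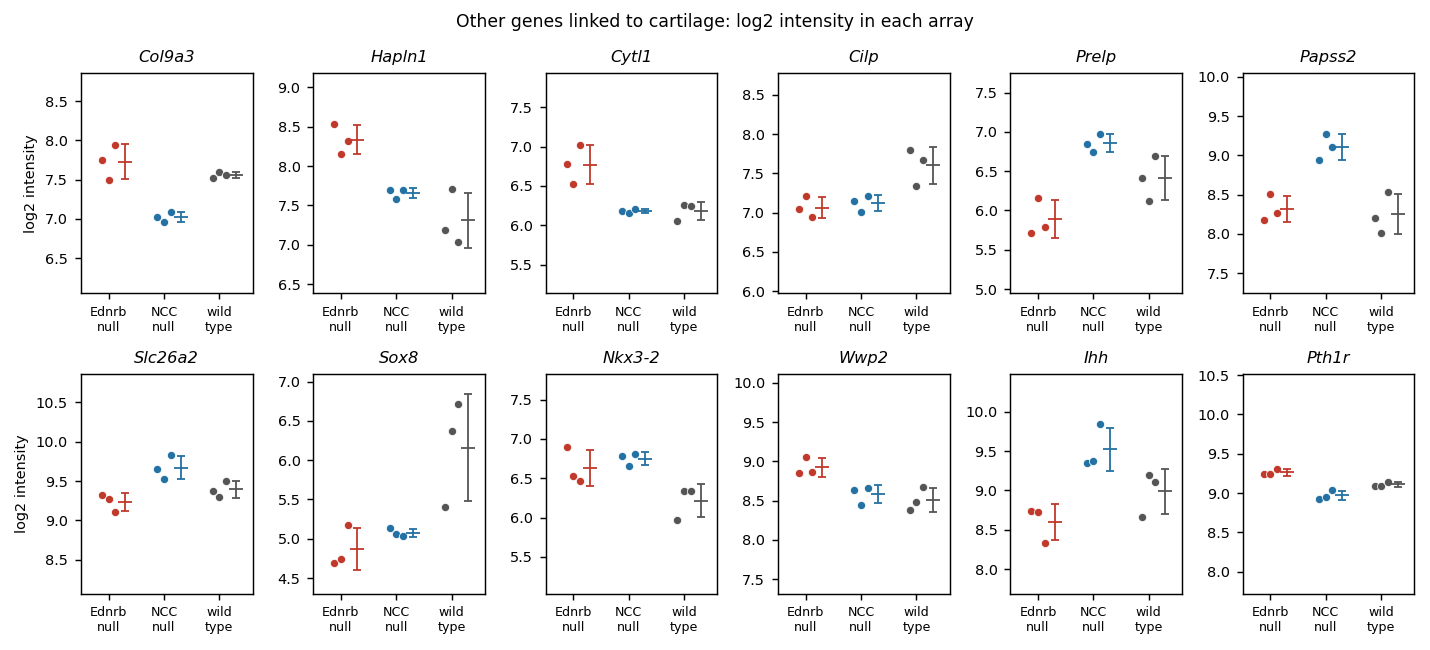
Log2 intensity (vertical axes, each spanning 2.8 log2 units) of the 12 named cartilage-linked genes outside the member list in the arrays of Ednrb null, NCC null and wild type; points are arrays, bars the mean ± SD (n = 3). Hapln1 and Cytl1 are highest in Ednrb null, Papss2 is highest in NCC null, and Sox8 is highest in wild type.

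Measures of RNA integrity and of other cell types also differed between the groups. On the log2 scale, the Actb control signal at the 3' end exceeded that at the 5' end by 0.87 ± 0.06 in Ednrb null, 1.21 ± 0.18 in NCC null and 1.18 ± 0.13 in wild type (SD over 3 arrays each), with Ednrb null below all other arrays. With this 3' to 5' ratio as a covariate, Otor still stood 1.38 above wild type in Ednrb null (SE 0.22), and Col2a1, Col9a1 and Col11a1 stood at 0.70, 0.90 and 0.49 (SE 0.22, 0.25 and 0.17). For Hapln1 and Cytl1 the differences were 0.998 and 0.60, no longer past the threshold (limma adjusted p = 0.143 and 0.275). Between the mutants, Otor, Col2a1, Col9a1 and Col11a1 were 1.396, 1.30, 0.92 and 0.81 higher in Ednrb null with the covariate (SE from 0.18 to 0.26). Col9a1 and Col11a1 were then no longer past the threshold in either comparison. Of the other cartilage genes, none of the 5 called in Ednrb null against wild type and none of the 8 called between the mutants passed with the covariate (limma adjusted p from 0.129 to 0.571 and from 0.0577 to 0.369), while 4 of the 5 called in NCC null against wild type did. The ratio cannot be told apart from the Ednrb null genotype here. Against wild type, the covariate widened the SE of Otor from 0.14 to 0.22 and of Col9a1 from 0.16 to 0.25. Calls lost with it therefore say nothing on the part of RNA integrity, which was not tested.

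Summed intensity of the 7 measured gut epithelial markers was 6457 to 8949 in Ednrb null, 9983 to 12333 in NCC null and 8047 to 8868 in wild type. It was thus highest where Col2a1 was lowest. The epithelial markers Cdx1, Vil1, Foxa3 and Cdh17 were lower in Ednrb null than in NCC null, by 1.81, 1.21, 1.47 and 1.31 on the log2 scale (limma adjusted p = 0.00108, 0.00667, 0.000654 and 0.00418). Against wild type, Cdx1 and Foxa3 fell in Ednrb null, by 1.21 and 1.01 (adjusted p = 0.00664 and 0.00362, or 0.0507 and 0.0209 with the Actb covariate), and Vil1 and Cdx2 rose in NCC null, by 0.99 and 0.56 (adjusted p = 0.0225 and 0.0441, up to 0.0987 and 0.141 with 1 array left out). The part of the epithelium in the collagen differences was not tested.

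Markers of tissues that dissection can bring along varied between arrays as well. The sum of the 6 sclerotome markers was 731 to 796 in Ednrb null, 611 to 699 in NCC null and 595 to 757 in wild type. Every Ednrb null array thus lay above every NCC null array, as for Col2a1, Col9a1 and Col11a1 but not Col9a2, and Ednrb null overlapped wild type. Meox1, the brightest, and Foxc2 had Ednrb null above NCC null without overlap, by 0.30 and 0.55 (limma adjusted p = 0.249 and 0.186), and against wild type they stood at 0.32 and 0.09 (adjusted p = 0.22 and 0.864). The other sclerotome markers overlapped between the mutants: Pax1 stood at -0.06, Pax9 at 0.03, Nkx3-2 at -0.12 and Uncx at 0.32. The 12 skeletal muscle markers summed to 1195 to 1446 in Ednrb null, 2317 to 3427 in NCC null and 1209 to 3295 in wild type. The 3 bone markers measured summed to 153 to 176 in Ednrb null, 132 to 141 in NCC null and 177 to 203 in wild type. The 7 neural tube and ganglion markers summed to 2844 to 3434 in Ednrb null, 1900 to 2766 in NCC null and 2857 to 3902 in wild type, lowest in NCC null. The 6 epidermis markers summed to 2293 to 3628 in Ednrb null, 2569 to 2972 in NCC null and 2052 to 7102 in wild type, where 1C was lowest: Krt5 read 10.68, 7.76 and 10.81 in wild type 1B, 1C and 1D, and Krt14 9.64, 6.81 and 10.47. Of the notochord, epidermis and urogenital markers none passed in any comparison with limma, and of the neural tube and ganglion markers Mnx1 alone did, which fell by 0.59 on the log2 scale in Ednrb null against wild type (adjusted p = 0.0175, up to 0.0757 with 1 array left out, 0.535 with the Actb covariate). Only 2 of the 4 notochord markers listed were measured, Shh and Foxa2, without T and Noto. Shh was brighter than 95.4% of all genes, so this list says little about notochord. The part of skeletal or other carried-along tissue in the differences of the members was not tested.

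**Figure D4:**
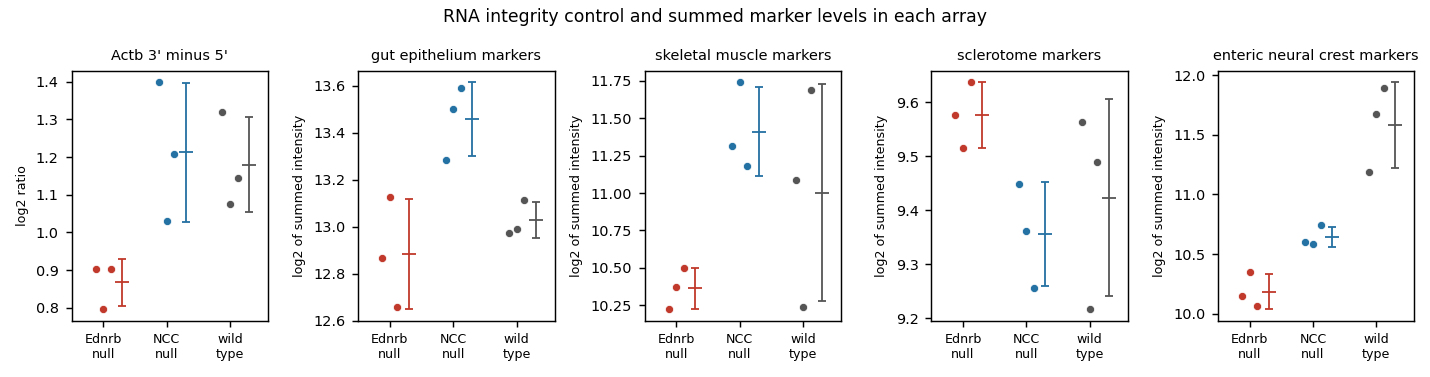
From left, the Actb control signal at the 3' end over the 5' end (log2) and the log2 of the summed intensity of gut epithelium, skeletal muscle, sclerotome and enteric neural crest markers in each array of Ednrb null, NCC null and wild type; points are arrays, bars the mean ± SD (n = 3). The Actb ratio and crest sum are lowest in Ednrb null, and the epithelial sum is highest in NCC null.

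Outside the members, the genes whose profile over the 9 arrays was most like that of Col2a1 were Serinc2 (r = 0.93), Zfp945 (0.91), Vat1l (0.90), Adamts18 (0.89), Frzb (0.88), Ttll1 (0.87), Cxxc4 (0.87), Inhba (0.86), Zcchc18 (0.86) and H2az2 (0.85). They were taken from 1290 genes whose log2 intensity ranged over at least 1 unit. Frzb, a secreted Wnt antagonist known from developing cartilage, read 9.43 ± 0.14 in Ednrb null, 8.41 ± 0.18 in NCC null and 8.70 ± 0.19 in wild type (SD over 3 arrays each). Inhba, a subunit of activin, read 10.72 ± 0.09 in Ednrb null, 9.57 ± 0.20 in NCC null and 9.97 ± 0.42 in wild type. The most opposite profiles were those of AW112010 (r = -0.99), Klf4 (-0.98), Epb41l4b (-0.98), St14 (-0.98) and Paqr5 (-0.97). Klf4, a transcription factor of differentiating epithelium, read 9.31 ± 0.30 in Ednrb null, 10.26 ± 0.10 in NCC null and 9.74 ± 0.11 in wild type. Picking the extremes of many genes over 9 arrays yields high values by itself, so these are a description.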

How the data were processed

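Hindgut RNA of 9 samples in 3 genotypes was measured on Affymetrix arrays, after biotin labelling of cRNA per the labels' protocols. The deposited values are 1 intensity per probe set and array, made by the authors with RMA per the submitters' processing notes; the version is not given in the sources used here. They were on the linear scale (5.69 to 61637) and were put on a log2 scale with no pseudocount or filter. Of 45101 probe sets 64 were controls, 34945 named 1 gene, 932 several and 9160 none. The brightest probe set naming a gene alone stood for that gene (18193 genes, 18032 matched to RefSeq by Entrez ID; symbols were kept). All 10 members matched RefSeq, and 8 of them, not Col2a1 and Sox9, were found in the RefSeq promoter table.

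Using limma 3.58.1 (lmFit, eBayes; R 4.3.3), group means were estimated from the 9 arrays together, with a spread shared by the groups. P-values were 2-sided, adjusted by Benjamini-Hochberg over 18193 genes, and called under 0.05. The fit was tested on simulated data. Members, gene lists and the rule for named genes (all members; other cartilage genes that passed or had the 4 smallest p; the 10 genes most and the 5 least like Col2a1; the brightest and the called markers) were chosen with earlier results of these data known. Precision is limited by the number of arrays. Alternatives changed the scaling, the filter, the fit, the probe sets per gene, the arrays used and the threshold, or took the Actb ratio as a covariate.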

Additional observations from a re-analysis of the deposited data

How the results depend on the processing

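The log2 differences of the 10 members moved by less than 1 SD between arrays in 518 recomputed values and by more in 7. Most of these values could not have moved by more, so the count says little about stability. Leaving out 1 of 3 arrays cannot shift a group mean by more than this SD, and several settings change only the test. The count of members called for Ednrb null against wild type, 3, was 1 after adding the Actb ratio as covariate and with only the 2 groups compared, and 1 to 4 with 1 array left out. For NCC null against wild type, 1 became 0 with quantile normalization and with all probe sets tested, and was 0 to 1 with 1 array left out. Between the mutants, 4 became 2 with the covariate and was 3 to 4 with 1 array left out. Of the other cartilage genes, the 5 calls for Ednrb null against wild type became 3 of 19 genes without the dimmest 40%, 0 with the covariate and 1 with only the 2 groups, and ranged from 1 to 6 with 1 array left out. The 5 for NCC null against wild type became 3 without the dimmest and 3 with only the 2 groups, and ranged from 1 to 4. The 8 between the mutants became 0 with the covariate and ranged from 4 to 8. The members' median difference was 0.44, -0.11 and 0.73 over the 5 members left without the dimmest genes, which drops Otor. It was 0.019 for Ednrb null against wild type, and 0.15 for Ednrb null against NCC null, with the mean of all probe sets, and 0.044 and 0.15 with all probe sets tested. With 1 array left out it ranged from 0.11 to 0.19, -0.11 to -0.0022 and 0.17 to 0.32. Fewer genes were tested without the dimmest, and the cause of the other moves was not tested. No paired analysis was possible because the groups share no replicate numbers.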

Other observations

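Tendon genes, a neighbour of cartilage in the skeletal lineages, went apart as the cartilage genes did. Scx, a transcription factor of tendon progenitors, had a log2 intensity of 8.19 ± 0.15 in Ednrb null, 7.66 ± 0.25 in NCC null and 7.22 ± 0.17 in wild type (SD over 3 arrays each). It rose by 0.98 in Ednrb null against wild type (SE 0.14, limma adjusted p = 0.00211), a call that held with any 1 array left out but not with the Actb 3' to 5' ratio as covariate (adjusted p = 0.0882), while its dimmer x_at probe set gave 0.17. Tnmd, a membrane protein of tendon cells, was 1.62 lower on the log2 scale in Ednrb null than in NCC null (adjusted p = 0.00267), also held with any 1 array left out but not with the covariate (0.0772). Thbs4, a matrix protein of tendon and muscle, stood 0.64 above wild type in Ednrb null and 0.72 above it in NCC null (adjusted p = 0.0388 and 0.0241), calls lost without several single arrays (adjusted p up to 0.147 and 0.0948), the first also with the covariate (0.621). Kera, a keratan sulfate proteoglycan, was 1.10 lower in Ednrb null than in NCC null (adjusted p = 0.024, up to 0.107 with 1 array left out and 0.369 with the covariate). The 5 tendon markers summed to an intensity of 1276 to 1575 in Ednrb null, 2227 to 2289 in NCC null and 1265 to 1666 in wild type, so the list as a sum was highest in NCC null.

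Among the muscle and bone markers, Actc1 was 1.95 lower and Tnnt1 0.98 lower in Ednrb null than in NCC null (limma adjusted p = 0.0236 and 0.0339, up to 0.111 and 0.142 with 1 array left out, 0.304 and 0.142 with the covariate). Dmp1, a matrix protein of bone, fell by 1.26 in NCC null against wild type (adjusted p = 0.00227, at most 0.0154 with 1 array left out and 0.00431 with the covariate). It stood 0.65 higher in Ednrb null than in NCC null (adjusted p = 0.0403, up to 0.13 with 1 array left out and 0.315 with the covariate). The dimmer Dmp1 probe sets, at mean log2 intensities of 4.83 and 4.19, gave -1.32 and -0.36 in NCC null against wild type. In Ednrb null against wild type they gave -0.84 and -0.08. On the brightest probe set the mean of Ednrb null also lay between those of NCC null and wild type, without a call against wild type. On that probe set and the first of the dimmer ones, the lower level was therefore not particular to NCC null.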
